A study of Drosophila melanogaster with 9 samples.

Results

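The JAK-STAT pathway genes dome, et, hop, Stat92E, Socs36E and Ptp61F were taken by name from the deposited gene table, and their introns by gene name from the intron table. All 6 genes were present among 8335 genes, with 45 of 60779 listed introns. The cells were Drosophila melanogaster OSCs, a cultured line of ovarian somatic cells that keeps follicle cell features, transfected with siRNAs against tsu (siTsu, the Y14 subunit of the exon junction complex core), against Acn (siAcn, Acinus of the associated ASAP complex) or against GFP (siGFP, the control). PolyA-selected RNA was sequenced from 2 biological replicates of each, so that all groups shared 1 cell line, the transfection and the culture, and differed in the siRNA. The study asked how the exon junction complex, which is deposited on mRNA during splicing, contributes to intron removal, and the question taken here is how the transcripts of a signalling pathway stood in the same libraries.

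JAK-STAT signalling in the fly starts when a cytokine of the Unpaired family binds the receptor Domeless (dome). The Janus kinase Hopscotch (hop) then phosphorylates Stat92E, which enters the nucleus and activates target genes, among them Socs36E, whose protein feeds back to inhibit the pathway. The receptor-like protein Eye transformer (et) and the tyrosine phosphatase Ptp61F also restrain it. In the ovary the pathway patterns the follicular epithelium, specifies polar and stalk cells and drives border cell migration.

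Values are RPKM, reads per kilobase of transcript or intron scaled to the size of the library, and the libraries were scaled to between 11.5 and 30.4 M reads, the siGFP libraries having the most. The siRNA targets followed the labels. tsu was at 9.77 and 9.16 RPKM in siTsu cells, against 128 and 112 RPKM in siGFP cells, and Acn was at 16.8 and 16.5 RPKM in siAcn cells, against 98.1 and 140.4 RPKM in siGFP cells, so that both knockdowns left some transcript. The summed level of 5 follicle cell and OSC markers was 586 and 434 RPKM in siTsu cells, 905 and 702 RPKM in siAcn cells, and 1229 and 996 RPKM in siGFP cells. This list includes piwi, whose RNA the paper reports as reduced in Acn- and Tsu-depleted OSCs. The mean of piwi was 0.535 times that of siGFP cells in siAcn and 0.302 times in siTsu cells. The other markers were at 0.719 to 0.948 times in siAcn and 0.572 to 0.723 times in siTsu cells. Whether the lower sum of the list had a part in the pathway values was not tested. The sums of the germline, hemocyte and muscle markers reached at most 19.9 RPKM in all 6 libraries, with the hemocyte marker Hml at most 0.0537 RPKM. They cover 5 of 7 listed germline, 3 of 6 hemocyte and 2 of 5 muscle markers. The others, and the 4 listed fat body markers, were not analysed here. The hemocyte sum (mostly srp) was 18.2 and 19.9 RPKM in siTsu cells, 16.1 and 17.6 RPKM in siAcn cells, and 11.9 and 12.1 RPKM in siGFP cells. In bulk RNA of this kind, fewer cells that transcribe a gene and less RNA per cell cannot be told apart.

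Among the 5 tested JAK-STAT genes, Socs36E had the largest difference from siGFP cells in both knockdowns, followed in siAcn cells by Stat92E. The feedback inhibitor Socs36E was 3.14 times as high in siTsu and 2.16 times as high in siAcn as in siGFP cells. Its replicates spread widely, and its siAcn and siGFP libraries overlapped. Stat92E was 1.38 times as high in siAcn as in siGFP cells. The receptor dome, the kinase hop and the phosphatase Ptp61F had log2 differences of at most 0.37 in size between any pair of groups. Changes were tested with limma on log2(RPKM + 1) over the 7362 genes that averaged 1 RPKM or more, at an adjusted p under 0.05, which left out et. On this scale the change of a gene with few reads is understated. Samples with the same replicate number deviated from their group means together, so each change is also given with the replicate number as a block where this alters the call. The block left the log2 changes as they were and altered their SE and p-values. Without it, 0 of the 5 tested JAK-STAT genes passed in any comparison.

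**Figure D1:**
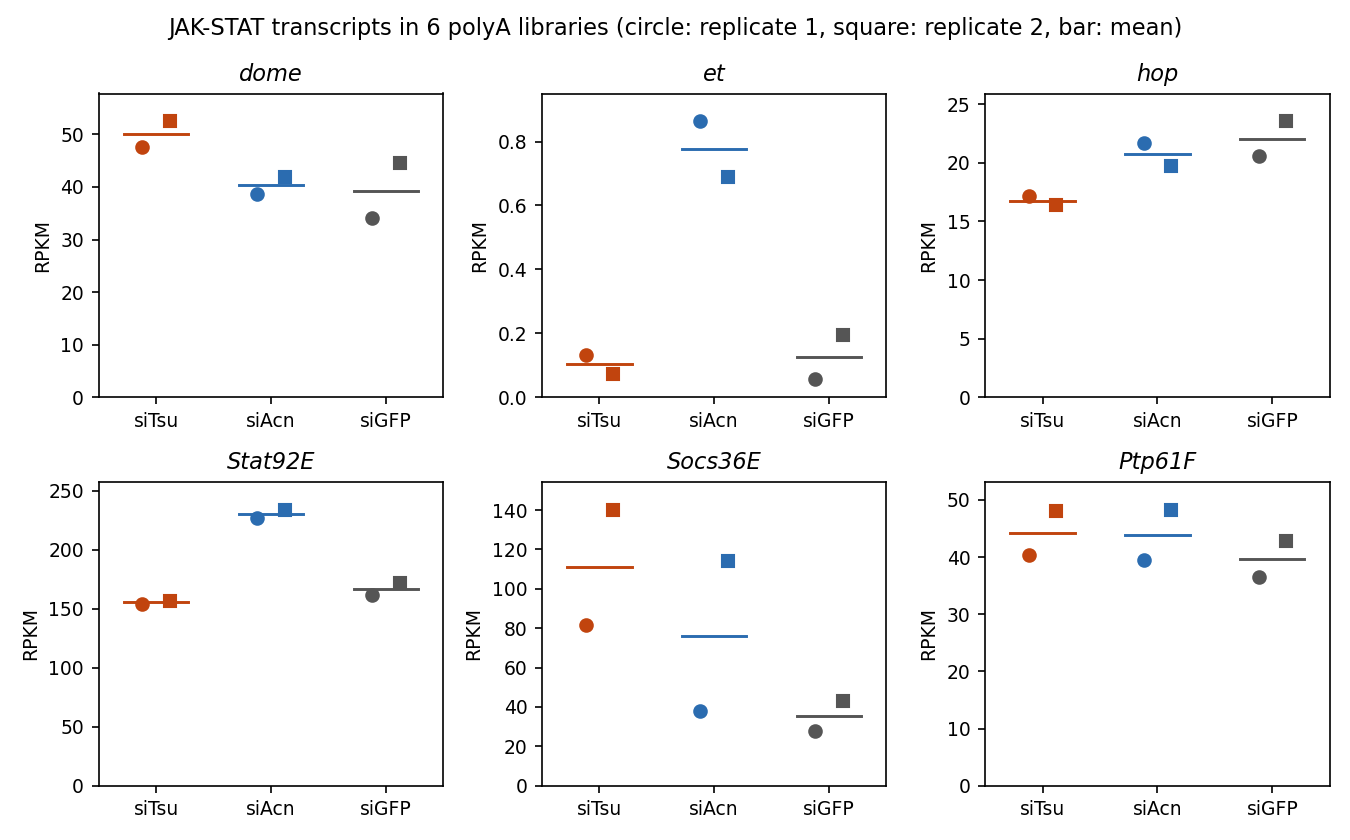
RPKM of the 6 JAK-STAT genes in siTsu, siAcn and siGFP cells. Circles are replicate 1, squares are replicate 2, bars are means of 2 libraries, and each vertical axis starts at 0. Stat92E is highest in both siAcn libraries, and Socs36E is higher in replicate 2 than in replicate 1 of every group.

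The receptor dome is the signalling receptor for the Unpaired cytokines. It was at 47.6 and 52.5 RPKM in siTsu cells, 38.8 and 41.9 RPKM in siAcn cells, and 34.1 and 44.5 RPKM in siGFP cells. Both siTsu libraries were above all the others, while the siAcn libraries lay inside the siGFP range. The single annotated transcript of 4875 nt was covered by 2731 to 6580 reads in a library, so that counting error was small beside the spread between replicates. The log2 change was 0.35 in siTsu over siGFP cells (SE 0.16, 95% interval -0.03 to 0.74, limma adjusted p = 0.235), and with the block the limma adjusted p was 0.0579. In siAcn over siGFP cells it was 0.05 (95% interval -0.34 to 0.43, limma adjusted p = 0.957).

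The gene et, also called latran, encodes a receptor-like protein that resembles Domeless and opposes its signalling. The gene lies beside dome on chromosome X, on the same strand and 169 nt away in the BDGP6 annotation. et was close to silent in siTsu and siGFP cells. It was at 0.132 and 0.0727 RPKM in siTsu cells, 0.864 and 0.690 RPKM in siAcn cells, and 0.0582 and 0.193 RPKM in siGFP cells. Both siAcn libraries stood above the other 4, and the mean was 6.18 times as high in siAcn as in siGFP cells.

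Reads were recovered for et from its RPKM, which equals the mean over its transcripts of 2368 and 2405 nt. On the shorter one these were 6 and 2 reads in siTsu cells, 38 and 22 reads in siAcn cells, and 4 and 14 reads in siGFP cells. Per 10 M reads of the library these counts came to 3.79 and 1.73 in siTsu cells, 20.4 and 16.5 in siAcn cells, and 1.39 and 4.61 in siGFP cells. The lowest exact Poisson bound in siAcn cells (95%, 10.3 per 10 M in replicate 2) was above the highest bound in the other groups (8.24 in siTsu replicate 1), and these intervals cover counting error only. They treat reads as independent. The libraries were read in pairs, and if both mates were counted the intervals are too narrow and this separation is not secure. Fitted without the filter on low values, et changed by 0.66 on the log2(RPKM + 1) scale in siAcn over siGFP cells (95% interval 0.35 to 0.96, limma adjusted p = 0.215, and 0.0537 with the block). In siTsu over siAcn cells it changed by -0.69 (95% interval -0.99 to -0.38, limma adjusted p = 0.0749), and it passed with the block (limma adjusted p = 0.0318), in a fit that called 6.65% of all genes in that comparison and 3.05% in siAcn over siGFP cells. dome, its neighbour, had a siAcn mean of 40.3 RPKM, against 39.3 RPKM in siGFP cells.

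**Figure D2:**
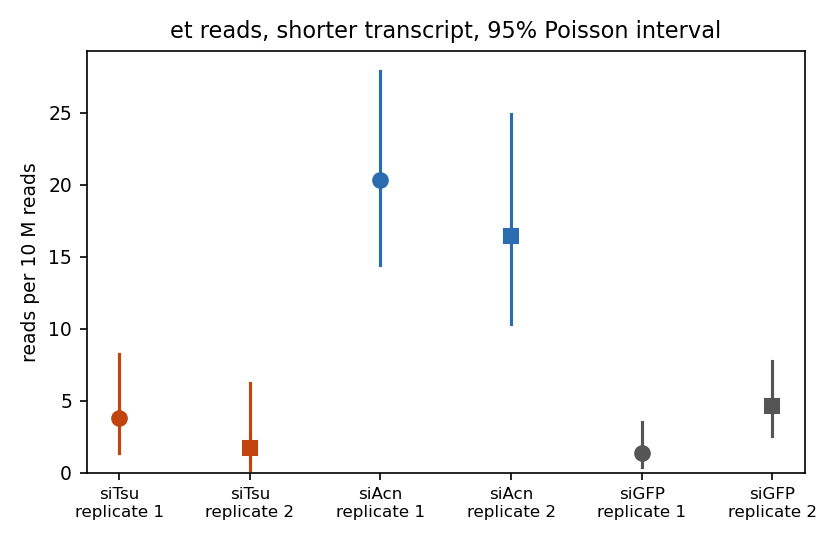
Reads assigned to the shorter et transcript per 10 M reads in each library, with exact 95% Poisson intervals that treat reads as independent, for siTsu, siAcn and siGFP cells. The siAcn libraries sit at 20.4 and 16.5, and the other 4 libraries between 1.39 and 4.61.

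The only Janus kinase of the fly, hop, had the lowest level of the 5 tested genes. It was at 17.2 and 16.4 RPKM in siTsu cells, 21.7 and 19.8 RPKM in siAcn cells, and 20.6 and 23.6 RPKM in siGFP cells. Both siTsu libraries were below the other 4, and the siAcn and siGFP libraries overlapped. The log2 change was -0.37 in siTsu over siGFP cells (SE 0.13, 95% interval -0.69 to -0.05), which did not pass over all genes (unadjusted p = 0.0287, limma adjusted p = 0.153, and 0.0637 with the block). In siAcn over siGFP cells the log2 change of hop was -0.08 (95% interval -0.41 to 0.24, limma adjusted p = 0.897).

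The transcription factor Stat92E was the most abundant of the 6 genes, ranking 457th of all genes by its siGFP mean. Its RPKM values were 154 and 157 in siTsu cells, 227 and 234 in siAcn cells, and 161 and 172 in siGFP cells. The siAcn libraries were well above the other 4, and within each group the libraries differed by far less than that gap. Stat92E averaged 155.5 ± 1.71 RPKM in siTsu cells, 230.3 ± 5.32 RPKM in siAcn cells, and 166.8 ± 7.64 RPKM in siGFP cells (SD, n = 2 each).

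The log2 change of Stat92E was 0.46 in siAcn over siGFP cells (SE 0.13, 95% interval 0.16 to 0.77). It did not pass without the block (unadjusted p = 0.00922, limma adjusted p = 0.383) and passed with it (SE 0.10, limma adjusted p = 0.0462). Between the knockdowns the change was -0.56 in siTsu over siAcn cells (SE 0.13, 95% interval -0.87 to -0.26, limma adjusted p = 0.127), and the lower siTsu level passed with the block (limma adjusted p = 0.0149). In siTsu over siGFP cells it was -0.10 (95% interval -0.41 to 0.21, limma adjusted p = 0.669). Of these comparisons, siTsu over siAcn is the test of whether the knockdowns differed from each other.

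Socs36E, a SOCS box protein and a transcriptional target of Stat92E, had the widest range. It was at 81.5 and 140.2 RPKM in siTsu cells, 38.1 and 114 RPKM in siAcn cells, and 27.5 and 43.2 RPKM in siGFP cells. Both siTsu libraries were above both siGFP libraries, while the siAcn libraries spread over most of that distance. Replicate 2 was higher than replicate 1 in every group, by 1.72 times in siTsu, 3.00 times in siAcn and 1.57 times in siGFP cells. A replicate 2 value of at least 1.5 times that of replicate 1 in all 3 groups was found for 94 of the 7362 genes (1.28%). A higher value in replicate 2 by any amount in all 3 groups was found for 1501 (20.4%), among them dome, Stat92E and Ptp61F.

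Within a replicate number, Socs36E in siTsu cells was 2.96 times (replicate 1) and 3.25 times (replicate 2) the siGFP level. The log2 change in siTsu over siGFP cells was 1.60 (SE 0.52, 95% interval 0.36 to 2.84), which did not pass without the block (unadjusted p = 0.0186, limma adjusted p = 0.127) and passed with it (SE 0.20, limma adjusted p = 0.00167). The change was 1.99 without siTsu replicate 1 and 1.22 without siTsu replicate 2. Without siGFP replicate 1 it was 1.29, and without siGFP replicate 2 it was 1.92. In siAcn over siGFP cells the change was 0.92 (95% interval -0.32 to 2.16, limma adjusted p = 0.789), and it passed narrowly with the block (limma adjusted p = 0.04997), a call that was lost when the filter on low values was also removed (0.0801). That change rested on siAcn replicate 2, without which it was 0.14. In siTsu over siAcn cells it was 0.69 (95% interval -0.55 to 1.93, limma adjusted p = 0.590), and -0.10 without siAcn replicate 1.

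The phosphatase Ptp61F, which dephosphorylates Hopscotch and Stat92E, varied least between the groups. It was at 40.3 and 48.0 RPKM in siTsu cells, 39.5 and 48.3 RPKM in siAcn cells, and 36.5 and 42.8 RPKM in siGFP cells. The 3 groups overlapped. The log2 change was 0.15 in siTsu over siGFP cells (95% interval -0.25 to 0.54, limma adjusted p = 0.612) and 0.14 in siAcn over siGFP cells (95% interval -0.25 to 0.54, limma adjusted p = 0.868), intervals that still allow a rise of about the size seen for Stat92E.

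Counted together, 0 of the 5 tested genes passed without the block in siTsu over siGFP cells, where 3.68% of all genes did, 0 in siAcn over siGFP cells (0.0679% of all genes) and 0 in siTsu over siAcn cells (1.01% of all genes). At an unadjusted p under 0.05 there were 2 (Socs36E higher, hop lower), 1 (Stat92E higher) and 1 (Stat92E lower) of 5, beside 24.4%, 7.61% and 14.8% of all genes. With the block, limma called 1 of 5 (Socs36E, against 25.3% of all genes), 2 of 5 (Socs36E and Stat92E, against 4.03%) and 1 of 5 (Stat92E, against 9.02%). The median log2 change of the 5 genes was 0.15, 0.14 and 0.01 in these comparisons, beside -0.09, -0.05 and -0.03 over all genes tested. The knockdowns share the siGFP libraries, so their changes against siGFP are not independent. With 2 libraries against 2, the smallest two-sided exact permutation p is 0.333, and the calls rest on the spread that limma pools over groups and genes.

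**Figure D3:**
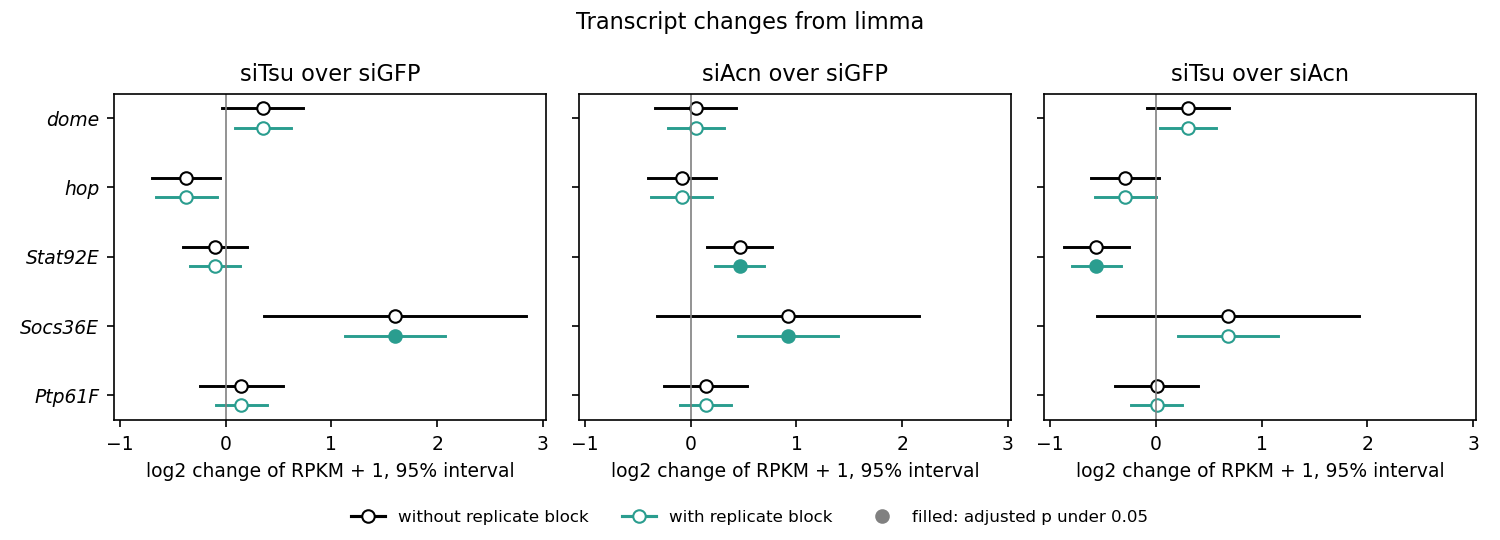
Log2 changes of RPKM + 1 with 95% intervals from limma for the 5 tested genes in siTsu over siGFP, siAcn over siGFP and siTsu over siAcn cells, without (black) and with (green) the replicate block. Filled points have an adjusted p under 0.05. These are Socs36E (1.60) in siTsu over siGFP, Stat92E (0.46) and Socs36E (0.92) in siAcn over siGFP, and Stat92E (-0.56) in siTsu over siAcn, each with the block only.

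The cytokines upstream of the receptor showed the pattern of Socs36E. Of the 3 Unpaired ligands, upd2 and upd3 were measured and upd1 was not analysed here. upd3 was at 12.1 and 20.4 RPKM in siTsu cells, 4.08 and 12.4 RPKM in siAcn cells, and 2.5 and 5.70 RPKM in siGFP cells. upd2 was lower throughout, at 3.38 and 8.32 RPKM in siTsu cells, 1.43 and 5.18 RPKM in siAcn cells, and 1.07 and 2.08 RPKM in siGFP cells. For both ligands the siTsu libraries were above both siGFP libraries and overlapped those of siAcn. Replicate 2 was higher than replicate 1 in every group, as for 20.4% of all genes tested.

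Without the block 0 of 2 ligands passed in each comparison, and both had an unadjusted p under 0.05 in siTsu over siGFP cells, as did 24.4% of all genes. The log2 change there was 1.79 for upd3 (SE 0.52, limma adjusted p = 0.1003) and 1.34 for upd2 (SE 0.53, limma adjusted p = 0.183). Both passed with the block (limma adjusted p = 0.000684 for upd3 and 0.00473 for upd2), in a fit that called 25.3% of all genes. upd3 was also higher in siTsu than in siAcn cells with the block (log2 change 1.02, limma adjusted p = 0.0151), a change that was 0.32 without siAcn replicate 1 and 1.72 without siAcn replicate 2. In siAcn over siGFP cells the log2 changes were 0.77 for upd3 and 0.62 for upd2, and neither passed either fit (limma adjusted p = 0.813 and 0.841, and 0.0635 and 0.190 with the block). These values rested on siAcn replicate 2, without which they were 0.07 for upd3 and -0.05 for upd2.

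Downstream, of 8 listed target genes, 5 were measured and 4 tested (slbo, which border cells need to migrate, had at most 1.45 RPKM), while TotA, TotM and Tep1 were not analysed here. vir-1, a gene that JAK-STAT signalling switches on in virus-infected flies, was at 18.9 and 87.7 RPKM in siTsu cells, 2.88 and 21.3 RPKM in siAcn cells, and 1.82 and 5.18 RPKM in siGFP cells. Like Socs36E and the ligands it was highest in siTsu cells and higher in replicate 2 of each group, by 4.64, 7.39 and 2.85 times. Its siTsu level was 10.4 times (replicate 1) and 16.9 times (replicate 2) that of siGFP cells. The log2 change of vir-1 in siTsu over siGFP cells was 3.33 (SE 0.97, 95% interval 1.03 to 5.64, limma adjusted p = 0.1003), and it passed with the block (SE 0.28, limma adjusted p = 0.000311). Its size depended on the siTsu library, at 2.26 without siTsu replicate 2 and 4.41 without siTsu replicate 1. In siTsu over siAcn cells it was 2.18 (limma adjusted p = 0.363, and 0.00493 with the block), and in siAcn over siGFP cells 1.16 (limma adjusted p = 0.839, and 0.0680 with the block). Without siAcn replicate 1 these changes were 0.91 and 2.42, and without siAcn replicate 2 they were 3.44 and -0.10.

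The transcription factor gene zfh1, a Stat92E target in somatic stem cells of the fly testis, was lower in siTsu cells. It was at 114.5 and 92.4 RPKM in siTsu cells, 164 and 135 RPKM in siAcn cells, and 183 and 191 RPKM in siGFP cells. The groups did not overlap. zfh1 fell in siTsu over siGFP cells (log2 change -0.85, SE 0.17, limma adjusted p = 0.0468, and 0.00272 with the block), the only target gene to pass without the block. With any one of the siTsu or siGFP libraries left out, the limma adjusted p was between 0.1004 and 0.330. apt, a transcription factor gene that limits JAK-STAT signalling in border cells, had a log2 change of -0.16 in siTsu over siGFP cells (95% interval -0.59 to 0.27, limma adjusted p = 0.622). chinmo, another Stat92E target in those stem cells, changed by -0.52, and passed only with the block (limma adjusted p = 0.113, and 0.00954). In siTsu over siGFP cells 0 targets were called higher and 1 lower, and with the block 1 higher and 2 lower of 4, beside 3.68% and 25.3% of all genes. With the block vir-1 was also higher and zfh1 lower in siTsu than in siAcn cells (limma adjusted p = 0.00493 and 0.0384), and in siAcn over siGFP cells 0 targets were called in either fit.

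**Figure D4:**
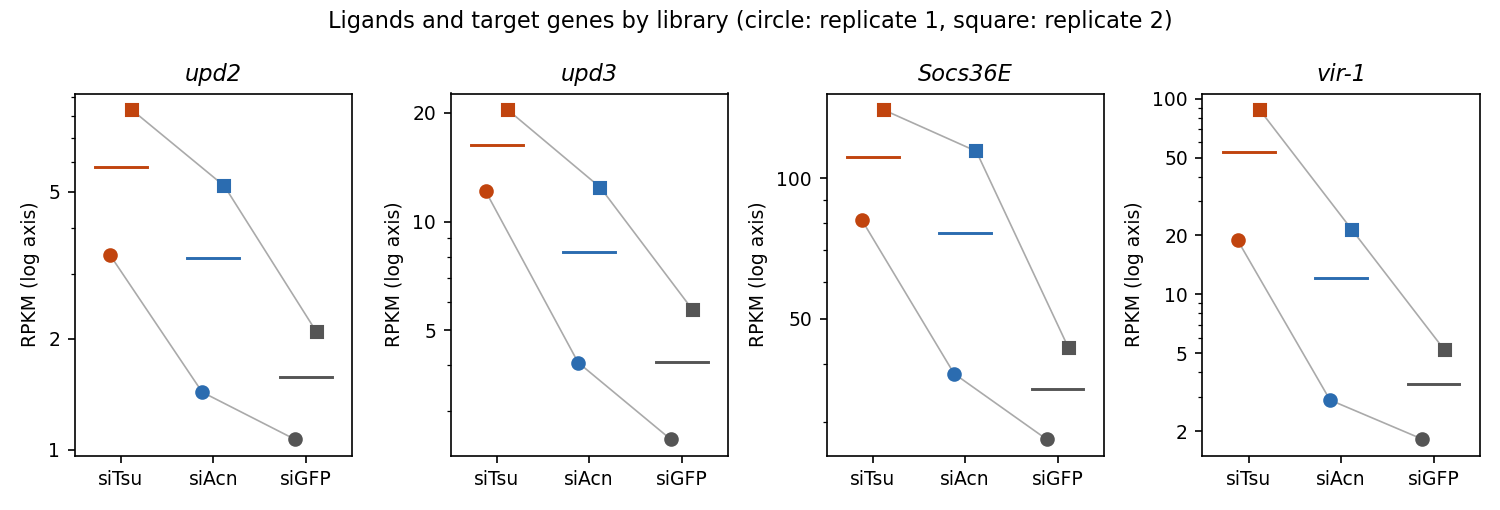
RPKM on log axes of the ligands upd2 and upd3, the inhibitor and target Socs36E and the target vir-1 in siTsu, siAcn and siGFP cells. The tested targets zfh1, chinmo and apt are not drawn, and their means were lower in siTsu than in siGFP cells. Circles (replicate 1) and squares (replicate 2) are joined by replicate number, and bars are means. In each gene and replicate number the order is siTsu, then siAcn, then siGFP from high to low, with vir-1 reaching 87.7 RPKM in siTsu replicate 2, against 5.18 RPKM in siGFP replicate 2.

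All 12 listed modulators of the pathway were tested. Without the block 0 passed in siTsu over siGFP and in siAcn over siGFP cells (6 and 1 at an unadjusted p under 0.05, beside 24.4% and 7.61% of all genes), and 1 was lower in siTsu than in siAcn cells. This was Cdk4, the partner kinase of cyclin D, with a log2 change of -0.86 (SE 0.13, limma adjusted p = 0.0479, and 0.00499 with the block). It was at 18.0 and 17.1 RPKM in siTsu cells, 35.4 and 30.2 RPKM in siAcn cells, and 27.6 and 26.8 RPKM in siGFP cells. The groups did not overlap, and the log2 change against siGFP cells was -0.61 in siTsu cells (limma adjusted p = 0.0598, and 0.00745 with the block) and 0.26 in siAcn cells (limma adjusted p = 0.761). Without any one of the 6 libraries the siTsu over siAcn call was lost (limma adjusted p between 0.0866 and 0.361).

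ken, a repressor that holds back part of the Stat92E targets, was at 36.5 and 34.7 RPKM in siTsu cells, 42.0 and 34.9 RPKM in siAcn cells, and 48.1 and 61.9 RPKM in siGFP cells. Its log2 change in siTsu over siGFP cells was -0.60 (limma adjusted p = 0.0949), and it passed with the block (limma adjusted p = 0.0243). With the block, limma called 2 modulators higher in siTsu over siGFP cells (lwr, the SUMO-conjugating enzyme, by 0.48, and the endosomal sorting adaptor Stam by 0.46) and 3 lower (Cdk4, ken and the nucleosome remodelling subunit E(bx), by -0.55), which makes 5 of 12 against 25.3% of all genes. In siAcn over siGFP cells 0 were called with the block, and in siTsu over siAcn cells lwr was higher (0.53) and Cdk4 lower. The median log2 change of the 12 modulators was -0.09 in siTsu over siGFP cells, the same as the -0.09 over all genes to 2 decimals.

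Intron retention was measured as the intron RPKM in percent of the RPKM of its transcript in the same library. An intron was tested if its gene was above 10 RPKM in siGFP cells and the intron was above 10% of its transcript in at least 1 of the 6 libraries. The 5 genes above 10 RPKM listed 41 introns, and 0 of them exceeded 10% in any library, while 2848 of 28666 introns (9.94%) of all such genes did. The median siGFP index was 0.867% for these 41 introns and 0.602% for all 28666. Several listed introns of Stat92E, Socs36E and Ptp61F overlap as alternative forms and share reads, so that they are not separate measurements.

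The highest index of each gene was 1.74% in dome, 3.86% in hop, 8.76% in Stat92E, 3.25% in Socs36E and 9.57% in Ptp61F. In Ptp61F it belonged to the first intron of 271 nt (dm3, chromosome 3L, 1474340 to 1474610). Its index was 4.14% and 9.57% in siTsu cells, 4.38% and 5.01% in siAcn cells, and 4.47% and 8.37% in siGFP cells, from 9 to 37 reads, and the groups overlapped. In Stat92E it belonged to an intron of 505 nt (dm3, chromosome 3R, 16364438 to 16364942) that overlaps a longer form of 1757 nt, with 8.76% and 5.98% in siTsu cells, 6.92% and 3.90% in siAcn cells, and 6.14% and 7.70% in siGFP cells. These groups overlapped as well.

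**Figure D5:**
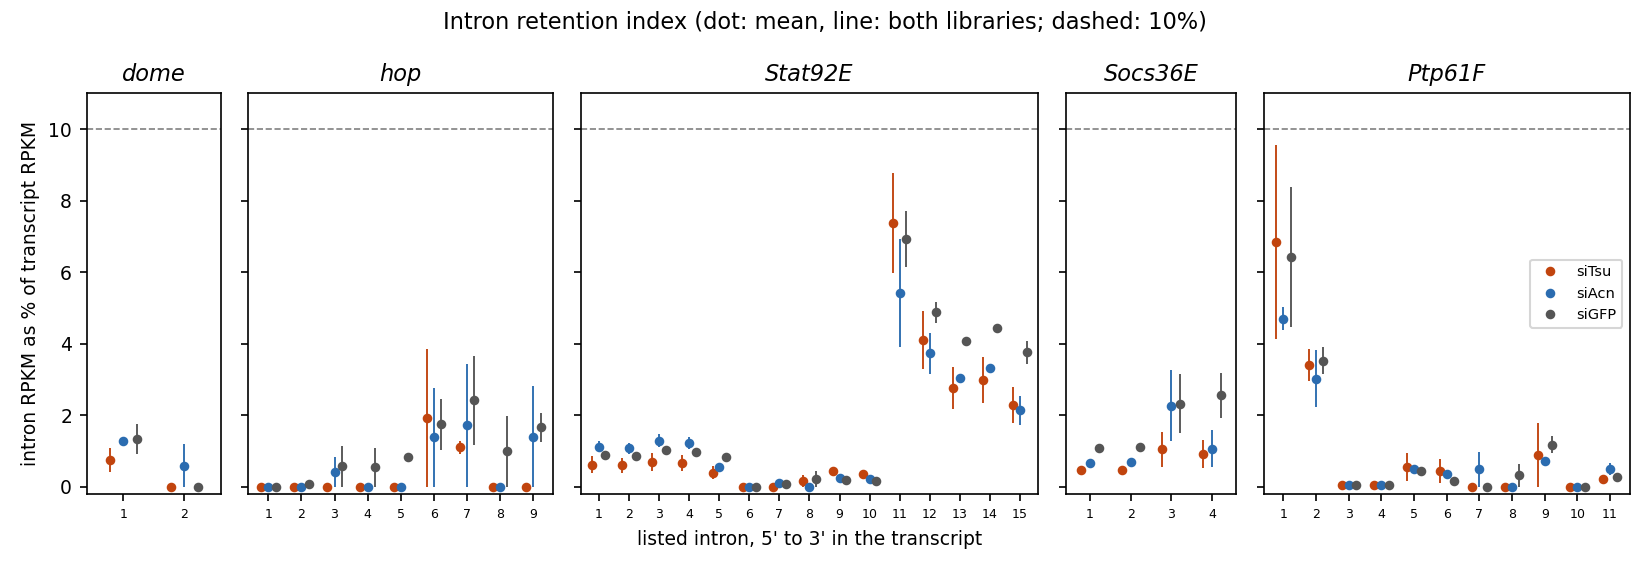
Intron RPKM in percent of transcript RPKM for the listed introns of dome, hop, Stat92E, Socs36E and Ptp61F, numbered 5' to 3', in siTsu, siAcn and siGFP cells. Dots are means of 2 libraries, lines join both libraries, and the dashed line marks 10%. All values lie below it, the highest being 9.57% in the first Ptp61F intron.

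Reads in the long first introns were set beside the transcripts, and whether they came from unspliced RNA was not tested. In Stat92E, 4 overlapping first introns of 8628 to 10527 nt are listed, and the form of 9167 nt is given here (dm3, chromosome 3R, 16367276 to 16376442). Its RPKM was 1.39 and 0.685 in siTsu cells, 3.16 and 2.47 in siAcn cells, and 1.59 and 1.68 in siGFP cells. Both siAcn libraries were highest, as for the transcript. Relative to the transcript, the index averaged 0.668% in siTsu cells, 1.23% in siAcn cells and 0.979% in siGFP cells, a log2 change of 0.28 in siAcn over siGFP cells (limma adjusted p = 0.908 with the 10% filter removed) and -0.58 in siTsu over siGFP cells (limma adjusted p = 0.618).

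In Socs36E, the first intron of 9628 nt (dm3, chromosome 2L, 18142581 to 18152208) had 0.455 and 0.492 RPKM in siTsu cells, 0.276 and 0.702 RPKM in siAcn cells, and 0.290 and 0.479 RPKM in siGFP cells. The ranges of siTsu and siGFP cells overlapped, although the transcript was 3.14 times as high in siTsu cells. The index was lower in siTsu cells, at 0.559% and 0.351% in siTsu cells, 0.725% and 0.614% in siAcn cells, and 1.05% and 1.11% in siGFP cells. Without overlap between the groups, the log2 change was -1.36 in siTsu over siGFP cells (SE 0.37, unadjusted p = 0.0179, limma adjusted p = 0.273).

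With the 10% filter removed, limma called 0 of the 41 introns in each of the comparisons, where 0% of all 28666 introns were called. At an unadjusted p under 0.05 there were 5 of 41 in siTsu over siGFP (12.5% of all introns), 2 in siAcn over siGFP (8.33%) and 3 in siTsu over siAcn cells (9.19%). Those counted were overlapping forms of the first Socs36E intron, and introns of hop and Stat92E with 0 to 6 reads over all libraries. The Stat92E intron of 68 nt held 0 reads. Its change of -0.47 in siAcn over siGFP cells is that of the transcript with the sign reversed. The median log2 change of the index over the 41 introns was -0.52 in siTsu over siGFP and -0.25 in siAcn over siGFP cells, beside -0.12 and -0.08 over all introns. The -0.52 is the value of the hop intron of 60 nt, which held 1 read over all libraries. Introns without reads return the reversed transcript change and overlapping forms count more than once, so these medians do not show lower retention. Many of the 41 introns held few reads. The introns of hop held 0 to 30 reads in all 6 libraries together, and 3 of the 41 held 0. The first dome intron of 2501 nt held 143 reads, with an index between 0.412% and 1.74%. The Ptp61F intron of 126467 nt contains introns of 8 other genes and had a mean index of at most 0.0501% in any group. The 4 listed introns of et held at most 5 reads each, too few for an index.

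The genes were also placed by their largest intron. Stat92E (10527 nt) and Ptp61F (126467 nt) belong to the 637 genes with an intron over 10 kb, whose median log2 change was -0.16 in siTsu over siGFP and 0.04 in siAcn over siGFP cells. Stat92E was at -0.10 and 0.46 in these comparisons, the second value above the upper quartile of the class (0.27), and Ptp61F was at 0.15 and 0.14. dome (2501 nt) and Socs36E (9628 nt) belong to the 1090 genes with a largest intron of 2 to 10 kb, with medians of -0.16 and -0.01, and both were above the upper quartile in siTsu over siGFP cells (0.12). hop (730 nt) was in the class of 0.5 to 2 kb, where the lower quartile in siTsu over siGFP cells was -0.32, and its change was -0.37.

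Among 5659 genes averaging 10 RPKM or more, those whose levels relative to siGFP were nearest to Stat92E over the 6 libraries were sbb, fal and Ntmt, with root mean square log2 differences of 0.10, 0.10 and 0.11. sbb was at 65.2 and 61.5 RPKM in siTsu cells, 79.0 and 84.4 RPKM in siAcn cells, and 62.3 and 68.4 RPKM in siGFP cells. For dome the nearest genes were CG32344, CG7928 and CG6659, with differences of 0.04, 0.05 and 0.06. These profiles were ranked over the same 6 libraries and carry no test.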

How the data were processed

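PolyA RNA from 6 libraries was analysed, 2 per group, and the rRNA-depleted libraries were not used here. The authors aligned the good bases of 50-nt read pairs to the fly genome and to FlyBase transcripts and introns and kept unique alignments. Bowtie, GSNAP and dm3 are named in the processing notes of the submitters, with no versions. The authors deposited RPKM per gene and per intron, and whether reads were assigned by strand is not given in the sources used here. For genes with 1 transcript the RPKM gave whole reads (within 0.1) in 2531 of 2575 genes, and for et it was a mean over transcripts, so that levels of genes with several transcripts depend on the annotation. Listed introns reach 35 nt into each exon, which was taken off the coordinates and lengths, while reads there stay in the values. BDGP6 served for names, lengths and neighbours only. No sequence is shown.

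Transcripts averaging 1 RPKM or more were put on a log2(RPKM + 1) scale and introns on the log2 of their index after adding 0.1 RPKM to both values. Both were fitted in R 4.3.3 by limma 3.58.1 (lmFit and a trended eBayes, 3 groups in one fit, Benjamini-Hochberg adjusted p under 0.05 over all features). Figures were drawn with matplotlib 3.10.9 and tables made with pandas 2.3.3, scipy 1.17.1 and numpy 2.4.6 under Python 3.11.15. On simulated siTsu over siGFP data, 53% of 100 genes changed by a log2 of 1 were called and 92% of those changed by 2, among 7362 genes. The simulation drew independent noise for each library and was fitted without the block, so its rates do not describe the blocked calls. The p-values rest on the spread between 2 biological replicates per group, pooled over the 3 groups and moderated by limma over all features. The labels give replicate numbers but no shared day or batch. The deviations of same-numbered libraries correlated over 7362 genes at 0.63 (siTsu and siAcn), 0.44 (siTsu and siGFP) and 0.51 (siAcn and siGFP), so blocked values are given.

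The genes, lists and tests were chosen with earlier results of these data known. The rule was to name all 6 genes, the list genes that passed, the 2 largest changes of each list in siTsu over siGFP cells, absent genes, and the 3 nearest profiles of Stat92E and dome. The genes chinmo, lwr, Stam and E(bx), which passed only with the block, and apt and slbo were added after their values were seen.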

Additional observations from a re-analysis of the deposited data

How the results depend on the processing

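The replicate block changed the calls given with the results, from 0 to 1 of the JAK-STAT genes in siTsu over siGFP, 0 to 2 in siAcn over siGFP and 0 to 1 in siTsu over siAcn cells, and no other call of a JAK-STAT gene. Removing the filter on low values as well, chosen after seeing the data so that et entered the blocked fit, gave 1, 1 and 2, with Socs36E lost in siAcn over siGFP and et gained in siTsu over siAcn cells. Fitting siTsu and siGFP alone gave 1 (Socs36E), and leaving out 1 library gave 0 to 1 in that comparison and 0 in the others. The other settings (pseudocount of 0.1 RPKM, no filter, a mean of 10 RPKM, median centring, quantile normalization, no trend) called 0 of these genes. Leaving out 1 library reversed changes that passed no test without the block, with ranges of -0.14 to 0.23 (dome), -0.18 to 0.0091 (hop), -0.00054 to 0.28 (Ptp61F), -0.053 to 1.29 (upd2) and -0.10 to 2.42 (vir-1) in siAcn over siGFP, and -0.10 to 1.47 (Socs36E), -0.13 to 0.15 (Ptp61F) and -0.23 to 0.030 (ken) in siTsu over siAcn cells. The other directions held in all settings for the genes named by the rule. The siTsu over siGFP call of zfh1 was lost with median centring (limma adjusted p = 0.0636), without the low filter (0.0526), at a mean of 10 RPKM (0.0556) and without the trend (0.0571), and that of Cdk4 in siTsu over siAcn cells in 6 settings (0.0501 to 0.0856). upd3 and vir-1 passed in siTsu over siGFP cells once a siAcn library or that group was left out (0.0434 to 0.0458). The cause was not tested. Over all genes, the block raised the called share in siTsu over siGFP cells to 25.3%, against 3.68% without it. Without the 10% filter, introns with the block were also at 0 calls. Other intron settings gave no value, since no intron of these genes entered the test. Depth limits what can be said of et and of short introns.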
